A study of Mus musculus with 16 samples.

Results

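6 genes of sex steroid signaling were followed in the amygdala of 28-day-old (PN28) mice that had or had not been exposed to stress before birth. They were Esr1, Esr2, Pgr, Gper1, Cyp19a1 and Srd5a1, taken by name from a table of 17293 genes, and all 6 had a row. RNA-seq libraries were made from dissected amygdala of 4 PS (prenatally stressed) males, 4 CTRL (control) males, 4 PS females and 4 CTRL females, all labelled C57BL/6 (C57BL6/J in the study's methods) and without an engineered allele. PS mice were carried by dams that met unpredictable psychosocial stressors during pregnancy, and CTRL mice by dams that were left alone. Within a sex the 4 mice of a group came from different litters. Mice that were cross-fostered, that is, swapped between litters at birth, formed separate groups of the study and are not among these libraries. PS mice were therefore also raised by stressed dams, whose maternal care the study reports as more fragmented. Stress before birth and care after it cannot be told apart here, and a PS effect covers both. Whether males and females shared litters is not given in the sources used here. The libraries are LM25 to LM28 for PS males, LM17 to LM20 for CTRL males, LM29 to LM32 for PS females and LM21 to LM24 for CTRL females.

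Sex steroids act on neurons largely through nuclear receptors, which are transcription factors that the hormone switches on. Testosterone from the testis reaches the male brain, where aromatase turns part of it into estradiol and steroid reductases turn part of it into the more potent androgen dihydrotestosterone. The medial amygdala is one of the regions of the rodent brain richest in cells with estrogen receptors, and it takes part in social and sexual behavior. At PN28 mice are around the onset of puberty. A dissection of the whole amygdala mixes these cells with those of the central and basolateral nuclei.

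The values are CPM, that is, counts scaled by the library total, which the authors computed after correcting the counts for unwanted variation. The corrected values sum to between 39989993 and 44275406 per library. The correction can shift the overall level of a gene, and Ttr, a choroid plexus gene, was listed at 0 in 16 of 16 libraries, so levels were compared between libraries and not between genes. What the correction took away between groups, as opposed to within them, is not recoverable. Differences are on the log2 scale, from CPM with TMM scaling and 0.5 added, with the standard error (SE) and 95% confidence interval (CI) from limma, and p-values were adjusted over all genes tested. A gene was called changed at an adjusted p under 0.05. Genes with a mean above 0.5 CPM in a compared group were tested, which held for 4 of the 6 members (Esr1, Pgr, Gper1 and Srd5a1). All 8 male libraries had under 1 CPM of Xist and all 8 female libraries under 1 CPM of Ddx3y, so 0 libraries went against the labelled sex. Since the tissue was a mixture, fewer cells of a type and less RNA per cell cannot be told apart.

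Esr1 encodes estrogen receptor alpha, the main estrogen receptor of the medial amygdala and hypothalamus. It lies on chromosome 10 at chr10:4611593-5005614 (mm10, plus strand, GENCODE M21). In PS males Esr1 had 2.36 (LM25), 3.66 (LM26), 3.85 (LM27) and 2.29 (LM28) CPM, against 4.73 (LM17), 5.82 (LM18), 5.91 (LM19) and 9.16 (LM20) CPM in CTRL males. Every PS male thus lay below every CTRL male, as for 6.62% of the 14309 genes tested, and the closest pair was LM27 and LM17. In PS females Esr1 had 6.11, 5.57, 6.58 and 10.1 CPM in LM29 to LM32, against 6.11, 6.37, 6.17 and 5.23 CPM in LM21 to LM24 of CTRL females. The female groups overlapped, and LM32 was the highest of the 16 libraries. As group means the level was 3.04 ± 0.831 CPM in PS males, against 6.40 ± 1.91 CPM in CTRL males, and 7.10 ± 2.07 CPM in PS females, against 5.97 ± 0.506 CPM in CTRL females (SD, n = 4 each). From low to high the order was PS males, CTRL females, CTRL males and PS females, and the upper 3 did not differ beyond their spread.

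PS males had a 2.01-fold lower Esr1 level than CTRL males (log2 difference -1.01, SE 0.22, 95% CI -1.49 to -0.53, limma adjusted p = 0.0424). It was the 1 member called of the 4 tested in this comparison, where 3.44% of the 14309 genes tested were called, 2.56% lower and 0.881% higher. Over all genes 126 were called higher and 366 lower with the TMM scaling and 280 higher and 253 lower without it, and Esr1 was called lower both ways. In females the difference was 0.22 (SE 0.22, 95% CI -0.26 to 0.70, limma adjusted p = 0.704), so a change of up to about 0.70 in PS females is within the interval. In that comparison 0% of 14236 genes were called by limma, with 1806 (12.7%) at an unadjusted p under 0.05. That share was 25.7% in males and 24.6% for the male PS effect less the female one. The male PS effect less the female one was -1.23 (SE 0.31, 95% CI -1.90 to -0.56, limma adjusted p = 0.0475), and Esr1 was the 1 member of 4 called, against 4.11% of 14392 genes (189 higher and 402 lower, or 322 higher and 242 lower without TMM scaling). The males' difference and this contrast share the male libraries and are not separate evidence.

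The number of genes called beside Esr1 moved with single libraries. In males it was 492 as reported, between 49 and 75 without CTRL male LM18, LM19 or LM20 or PS male LM25, and between 804 and 1429 without LM17, LM21, LM23, LM24, LM27, LM29, LM30, LM31 or LM32, each left out singly. For the contrast of the sexes it was 591 as reported, between 118 and 374 without LM18, LM20, LM24, LM25, LM31 or LM32, and between 1097 and 1488 without LM21, LM23, LM28, LM29 or LM30.

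**Figure D1:**
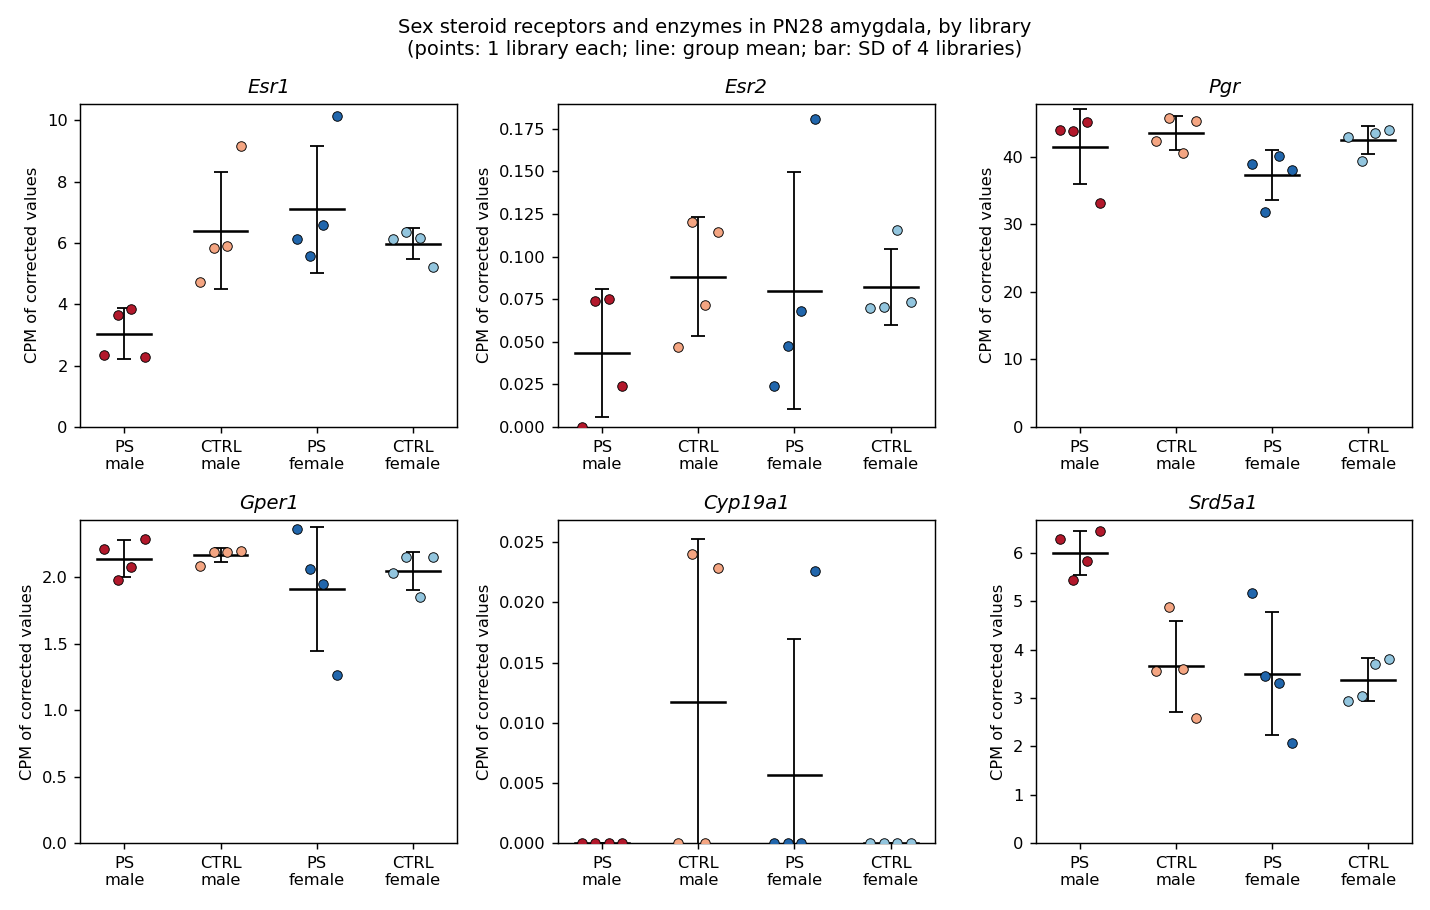
CPM of the 6 members in each of the 16 libraries, on linear axes from 0, with points for libraries, lines for group means and bars for the SD of 4 libraries. Esr1 lay between 2.29 and 3.85 CPM in PS males, against 4.73 to 9.16 CPM in CTRL males, and Srd5a1 lay between 5.44 and 6.44 CPM in PS males, against 2.59 to 4.88 CPM in CTRL males.

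The Esr1 call in males was close to the threshold. Leaving out 1 library at a time gave differences of -1.13 to -0.83, and 12 of 16 such fits called the gene. It was not called without CTRL male LM18 (limma adjusted p = 0.0589), LM19 (0.0601) or LM20 (0.0755) or without PS male LM25 (0.0745), nor without the filter on low values (0.0538) or the variance trend (0.0522). The contrast of the sexes ranged from -1.35 to -1.05 and was called in 8 of 16 such fits. It missed the threshold without CTRL male LM18, LM19 or LM20, CTRL female LM22 or LM24, PS male LM25, or PS female LM31 or LM32, with limma adjusted p-values between 0.0506 and 0.0696.

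Libraries LM25 and LM28, which had the lowest Esr1, also stood apart in regional markers. The summed level of 13 hippocampus markers, none of them at 0 everywhere, was 2229 CPM in LM25, 997 CPM in LM26, 951 CPM in LM27 and 2734 CPM in LM28 of PS males, against 695 to 1178 CPM in CTRL males. Of these 13 markers 1 was called higher and 0 lower in PS males, 12 had positive differences, and the median was 0.77. The 12 markers of the medial and extended amygdala, 2 of them at 0 in every library, summed to 204 CPM in LM25, 292 CPM in LM26, 263 CPM in LM27 and 183 CPM in LM28, against 247 to 388 CPM in CTRL males. LM26 and LM27, with 3.66 and 3.85 CPM of Esr1, were inside the CTRL male range in both of these sums but outside it in others. They lay above it in oligodendrocyte markers (614 and 574 CPM, against at most 567 CPM in CTRL males) and endothelial markers (252 and 264 CPM, against at most 244 CPM), and LM26 also lay above it in thalamus markers (171 CPM, against at most 155 CPM) and below it in microglia markers (210.4 CPM, against at least 233 CPM). Both were below it in hypothalamus markers (0.693 and 0.575 CPM, against at least 0.843 CPM). With LM25 and LM28 left out together, which was tried after seeing the data, the difference was -0.72 (limma adjusted p = 0.147), and 0 of 14260 genes were called, with 2627 at an unadjusted p under 0.05. The contrast of the sexes was then -0.94 (limma adjusted p = 0.0752).

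Other marker lists moved along with Esr1 as well. The 11 central amygdala and intercalated neuron markers, of which 1 was at 0 everywhere, summed to 41.7 to 85.6 CPM in PS males, against 69.6 to 122 CPM in CTRL males, and 6 of the 7 tested had negative differences with a median of -0.82. The 12 thalamus and habenula markers summed to 138 to 223 CPM in PS males, against 127 to 155 CPM in CTRL males, with 9 of 10 differences positive, a median of 0.39 and 0 called by limma (3 at an unadjusted p under 0.05). The 12 oligodendrocyte markers summed to 536 to 1117 CPM in PS males, against 287 to 567 CPM in CTRL males, with 12 of 12 differences positive, a median of 0.76 and 0 called by limma (1 at an unadjusted p under 0.05). The 10 microglia markers summed to 193 to 240 CPM in PS males, against 233 to 264 CPM in CTRL males, with 10 of 10 differences negative and 2 called lower. Endothelial markers (10) summed to 252 to 287 CPM in PS males, against 219.6 to 244 CPM in CTRL males, with 1 called higher and a median of 0.07. The medians of the astrocyte (0.14) and basolateral amygdala (0.03) markers were nearer 0, with 0 of 10 called by limma in each (2 and 4 at an unadjusted p under 0.05), and of 8 choroid plexus markers 5 were at 0 everywhere and 0 of the 2 tested were called by limma (0 at an unadjusted p under 0.05). Of 11 markers of the hypothalamus, another region rich in Esr1, 5 were listed at 0 everywhere, and the 11 summed to 0.575 to 1.06 CPM in PS males, against 0.843 to 2.19 CPM in CTRL males. Among females the highest sums were 21.4 CPM in PS female LM30 and 12.1 CPM in CTRL female LM21, whose Esr1 of 5.57 and 6.11 CPM lay within the range of the other females. The next highest sum was 4.74 CPM in PS female LM32, which had the highest Esr1 of all libraries (10.1 CPM). Over the 16 libraries Esr1 had positive Pearson correlations with the mean log2 level of the medial amygdala (0.80), microglia (0.68) and central amygdala (0.64) markers. Its correlations were negative with the thalamus (-0.75), oligodendrocyte (-0.73), hippocampus (-0.72), astrocyte (-0.65) and endothelial (-0.61) markers, and between 0.03 and 0.32 with the other 3 lists. Rank correlations were mostly weaker (Spearman 0.51 for medial amygdala, -0.44 for thalamus and -0.52 for hippocampus markers). These are descriptions over libraries that share groups. The hippocampus marker median was 1.397 in the contrast of the sexes (12 of 13 positive) and -0.75 in females (10 of 13 negative). In each 0 were called by limma (9 and 3 at an unadjusted p under 0.05). The shares of all genes at that unadjusted level were 24.6% and 12.7%, and 25.7% in males. Medial amygdala, central amygdala and oligodendrocyte markers had medians of -0.69, -0.95 and 0.65 in the contrast, against 0.08, 0.13 and 0.06 in females. The part of tissue composition in the Esr1 difference, or in its contrast of the sexes, was not tested.

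Besides Ecel1 and Lhx9, 5 markers were called in males, where 2.56% of all genes were called lower and 0.881% higher. They were 1 of 7 central amygdala, 2 of 10 microglia, 1 of 13 hippocampus and 1 of 10 endothelial markers tested. Tshz1, a transcription factor of intercalated neurons, was lower (-0.62, limma adjusted p = 0.0470), as were the microglial integrin Itgam (-0.43, 0.0432) and the fractalkine receptor Cx3cr1 (-0.39, 0.0437). Cpne9 of the hippocampus list (1.08, limma adjusted p = 0.0320) and Ly6c1 of the endothelial list (0.33, 0.0456) were higher. Each was called in 11 to 13 of 16 fits with 1 library left out and lost without CTRL males LM18 and LM19 and PS male LM25, each left out singly, all but Cpne9 also without LM20, Tshz1 without LM28 and Ly6c1 without LM26. All but Cpne9 were lost without the filter on low values or the variance trend as well (limma adjusted p between 0.0522 and 0.0588), and none of the 5 was called without LM25 and LM28 together. Tshz1 was lost without TMM scaling too (limma adjusted p = 0.0534). In the contrast of the sexes 4.11% of all genes were called. Of the markers Itgam (-0.52, limma adjusted p = 0.0492) and Lhx9 (0.99, 0.0468) were called there, in 7 and 9 of 16 fits with 1 library left out. Both were lost there without the filter or the variance trend (limma adjusted p between 0.0556 and 0.0620), and Itgam without TMM scaling (0.0626).

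**Figure D2:**
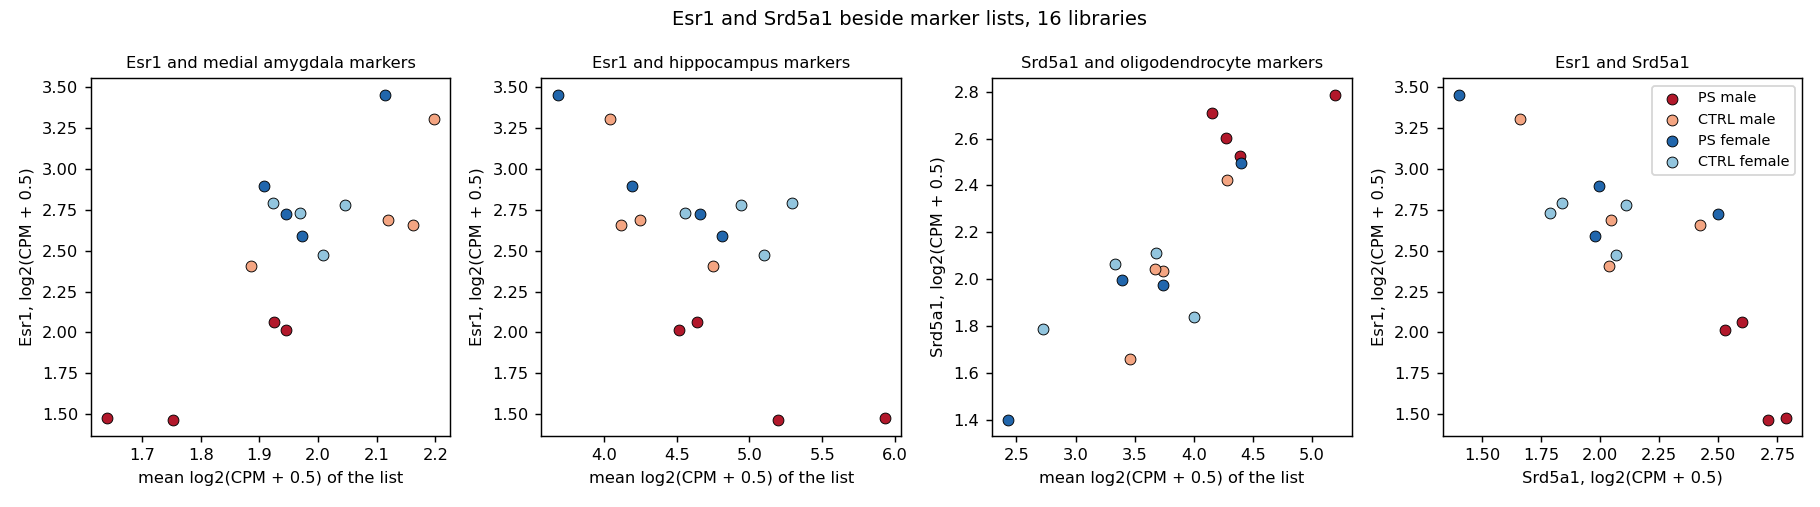
Esr1 or Srd5a1 (log2 of CPM + 0.5) in each of 16 libraries against the mean log2 level of a marker list, and Esr1 against Srd5a1 in the last panel, with 1 point per library colored by group. LM25 and LM28, the PS males at 2.36 and 2.29 CPM of Esr1, lie lowest in medial amygdala markers, and the PS males lie at the high end of Srd5a1.

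Esr2 encodes estrogen receptor beta, which is found in fewer cells of the rodent amygdala than the alpha form (chromosome 12, chr12:76120419-76177259, minus strand). It had 0, 0.0742, 0.0750 and 0.0241 CPM in LM25 to LM28 of PS males, against 0.0469, 0.120, 0.0715 and 0.114 CPM in LM17 to LM20 of CTRL males. PS females had 0.0239, 0.0474, 0.0681 and 0.181 CPM in LM29 to LM32, against 0.0700, 0.0703, 0.116 and 0.0733 CPM in LM21 to LM24 of CTRL females. In all 16 libraries the corrected value behind these CPM was at most 8, and the groups overlapped in both sexes. Exact two-sided permutation tests gave p = 0.171 for PS against CTRL males and p = 0.914 for PS against CTRL females, where 4 libraries against 4 cannot go below 0.0286. At these levels neither a difference nor its absence was detectable.

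Pgr encodes the nuclear progesterone receptor, a classic estrogen-induced gene in the hypothalamus (chromosome 9, chr9:8899833-8968611, plus strand). PS males had 44.0, 43.8, 45.1 and 33.2 CPM in LM25 to LM28, against 42.4, 45.7, 40.5 and 45.3 CPM in LM17 to LM20 of CTRL males. PS females had 38.9, 31.9, 40.2 and 38.0 CPM in LM29 to LM32, against 42.9, 39.4, 43.6 and 44.0 CPM in LM21 to LM24 of CTRL females. The groups overlapped in both sexes, with LM28 low among PS males and LM30 low among PS females. The difference was -0.13 in males (SE 0.098, 95% CI -0.35 to 0.08, limma adjusted p = 0.400) and -0.17 in females (SE 0.098, 95% CI -0.38 to 0.04, limma adjusted p = 0.487). A Pgr decrease as large as that of Esr1 in males lay outside both intervals. The group means were 41.5 ± 5.58 CPM in PS males, against 43.5 ± 2.47 CPM in CTRL males, and 37.3 ± 3.70 CPM in PS females, against 42.5 ± 2.10 CPM in CTRL females (SD, n = 4 each). From low to high the order was PS females, PS males, CTRL females and CTRL males, and no neighbours in it differed beyond their spread.

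The stretches upstream of 3 receptor genes are shown because an estrogen receptor binds the palindrome GGTCANNNTGACC, and because Pgr is a known target of it while Esr2 is the closest relative of Esr1. Each is the 250 bases before an annotated start in RefSeq (GRCm38.p6), 5′ to 3′ on the gene's strand, with any 5-base arm of the element (GGTCA or TGACC) in capitals. For Esr1 the second of 2 starts is shown (chr10:4709908-4710157), since the window of the first lies within annotated exons; Pgr is at chr9:8899583-8899832 and Esr2 at chr12:76177260-76177509.
Esr1: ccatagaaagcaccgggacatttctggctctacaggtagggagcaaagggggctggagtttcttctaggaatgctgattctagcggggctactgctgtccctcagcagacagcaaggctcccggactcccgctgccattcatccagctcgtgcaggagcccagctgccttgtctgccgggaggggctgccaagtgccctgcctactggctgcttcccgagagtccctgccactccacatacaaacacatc
Pgr: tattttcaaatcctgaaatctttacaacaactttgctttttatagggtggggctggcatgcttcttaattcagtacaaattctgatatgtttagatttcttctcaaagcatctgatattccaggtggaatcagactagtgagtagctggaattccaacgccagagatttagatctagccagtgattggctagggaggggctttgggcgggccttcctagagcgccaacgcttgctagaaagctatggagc
Esr2: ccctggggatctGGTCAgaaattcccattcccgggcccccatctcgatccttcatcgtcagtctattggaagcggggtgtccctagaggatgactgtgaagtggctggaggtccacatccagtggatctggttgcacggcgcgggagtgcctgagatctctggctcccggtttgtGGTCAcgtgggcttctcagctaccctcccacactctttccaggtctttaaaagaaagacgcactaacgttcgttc
The whole element was in none of these 3 windows, and it was in 0.0639% of the 32841 windows of all genes. An arm was found 2 times in the Esr2 window and 0 times in those of Esr1 and Pgr, while 35.2% of all windows hold at least 1. A search of one short window says nothing about binding elsewhere.

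Gper1 encodes a G protein-coupled receptor that responds to estradiol at membranes (chromosome 5, chr5:139423151-139427800, plus strand). PS males had 2.21, 1.98, 2.08 and 2.29 CPM in LM25 to LM28, against 2.08, 2.19, 2.19 and 2.20 CPM in LM17 to LM20 of CTRL males. PS females had 2.36, 2.06, 1.95 and 1.26 CPM in LM29 to LM32, against 2.03, 2.15, 1.85 and 2.15 CPM in CTRL females. The level was nearly flat over the 16 libraries apart from LM32, the library that was highest in Esr1. The differences were -0.06 in males (SE 0.12, 95% CI -0.32 to 0.19, limma adjusted p = 0.772) and -0.08 in females (SE 0.12, 95% CI -0.34 to 0.18, limma adjusted p = 0.808).

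Cyp19a1 encodes aromatase, the enzyme that makes estradiol from testosterone (chromosome 9, chr9:54165937-54268110, minus strand). It was listed at 0 in 13 of 16 libraries. The other 3 held a corrected value of 1, which is 0.0226 CPM in PS female LM32 and 0.0240 and 0.0229 CPM in CTRL males LM18 and LM20. In corrected values a listed 0 does not show that aromatase was absent. No effect of PS on it could be measured.

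Srd5a1 encodes a steroid reductase that makes dihydrotestosterone from testosterone and the first intermediate of allopregnanolone from progesterone (chromosome 13, chr13:69573449-69611442, minus strand). PS males had 6.29, 5.44, 5.83 and 6.44 CPM in LM25 to LM28, against 3.56, 4.88, 3.60 and 2.59 CPM in LM17 to LM20 of CTRL males. Every PS male lay above every CTRL male. PS females had 5.16, 3.46, 3.31 and 2.08 CPM in LM29 to LM32, against 2.94, 3.04, 3.70 and 3.81 CPM in LM21 to LM24 of CTRL females, and these groups overlapped. As group means the level was 6.00 ± 0.454 CPM in PS males, 3.66 ± 0.941 CPM in CTRL males, 3.50 ± 1.27 CPM in PS females and 3.37 ± 0.445 CPM in CTRL females (SD, n = 4 each). The last 3 did not differ beyond their spread.

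The Srd5a1 difference in males was 0.62 (SE 0.20, 95% CI 0.19 to 1.05, limma adjusted p = 0.0852) and missed the threshold, although the libraries did not overlap. Non-overlapping libraries that were higher in PS males were seen for 17.3% of all genes tested, and lower ones, as for Esr1, for 6.62%. All shares of non-overlapping libraries given here were counted on CPM without TMM scaling, unlike the differences and calls. The difference passed without PS female LM29 (limma adjusted p = 0.0443) or LM32 (0.0307), which are not among the libraries compared. It also passed when only the male libraries were fitted (0.0313) and when the removed factors were not kept in the model (0.0440). In females the difference was 0.02 (SE 0.20, 95% CI -0.41 to 0.45, limma adjusted p = 0.982), and the contrast of the sexes, 0.60 (SE 0.28, limma adjusted p = 0.209), did not pass. Its exons share 476 bases with Gm17108 on the same strand, and how reads from there were counted is not given in the sources used here. Srd5a1 had a Pearson correlation of 0.87 with the mean log2 level of the oligodendrocyte markers over 16 libraries (Spearman 0.79), whose part in the difference was not tested.

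**Figure D3:**
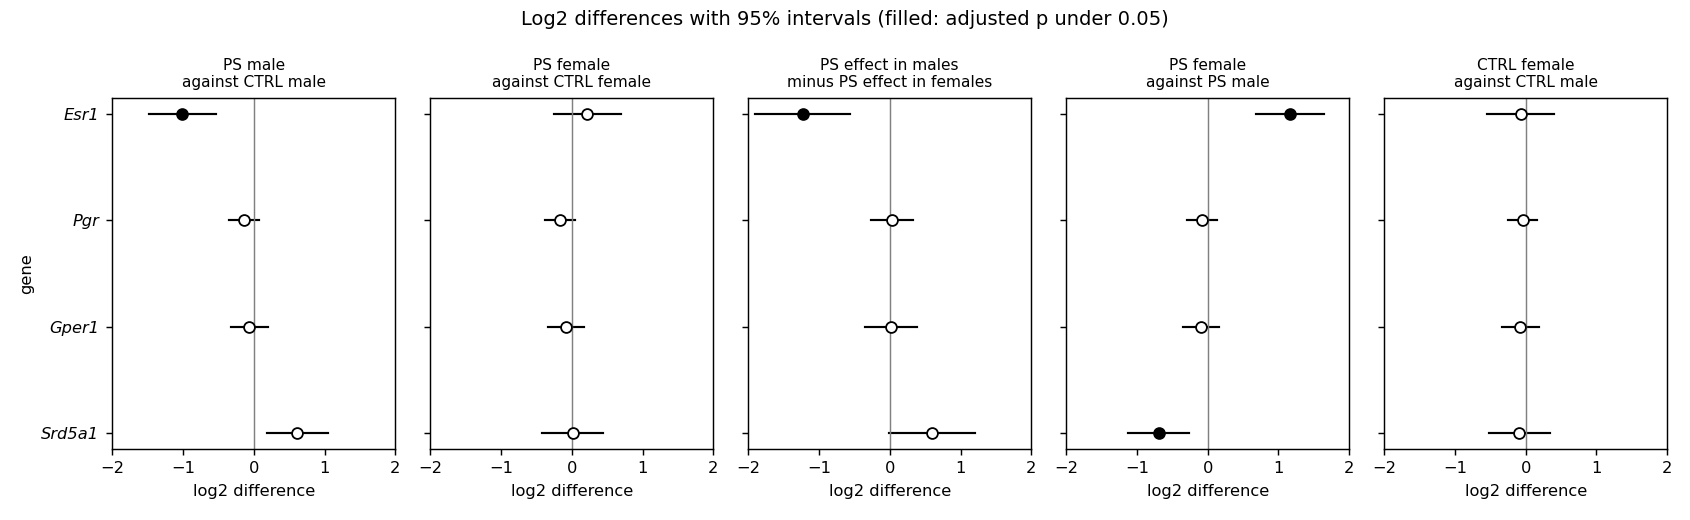
Log2 differences with 95% intervals for the 4 tested members in 5 contrasts, with filled symbols at a limma adjusted p under 0.05. Filled symbols are seen for Esr1 in PS against CTRL males (-1.01), in the contrast of the PS effects (-1.23) and in PS females against PS males (1.16), and for Srd5a1 in PS females against PS males (-0.69).

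The sexes were then compared within each condition, with females set against males. Among PS mice 2 of the 4 tested members were called, beside 13.1% of 14316 genes (7.58% higher and 5.53% lower in PS females). Over all genes the split was 1085 higher and 792 lower, and it was 739 higher and 1661 lower without TMM scaling. The total of 1877 fell to 1107 without PS female LM32 and was 3181 with the removed factors not kept. Esr1 was 2.23-fold higher in PS females than in PS males (log2 difference 1.16, SE 0.22, 95% CI 0.68 to 1.64, limma adjusted p = 0.0125), with no overlap of libraries, which was seen for 6.99% of genes in this direction. This difference was called in 16 of 16 fits with 1 library left out and in 9 of 9 other alternatives, among them the one without LM25 and LM28, and its limma adjusted p was at most 0.0318.

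Srd5a1 was 1.61-fold lower in PS females than in PS males (log2 difference -0.69, SE 0.20, 95% CI -1.12 to -0.26, limma adjusted p = 0.0391), again without overlap, as for 16.8% of genes. It was not called without PS male LM25 or LM28 or PS female LM31 or LM32, where limma adjusted p-values lay between 0.0550 and 0.0784. Nor was it without the filter on low values (0.0511) or with only the compared groups fitted (0.0513). Without LM25 and LM28 together it was -0.60 (limma adjusted p = 0.109). Pgr (-0.08, limma adjusted p = 0.605) and Gper1 (-0.10, limma adjusted p = 0.612) did not pass. Both comparisons of PS males share the PS male libraries.

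Marker lists moved in this comparison too. The oligodendrocyte markers had 12 of 12 negative differences with a median of -1.10, and the hippocampus markers 12 of 13 with a median of -0.82, while 6 of 8 medial amygdala markers were positive with a median of 0.35. PS female LM32, highest in Esr1 and lowest in Srd5a1, had the lowest sum of all libraries in several lists. These were hippocampus (391 CPM), oligodendrocyte (126 CPM), astrocyte (3908 CPM), endothelial (205 CPM) and thalamus (126.6 CPM) markers, while LM32 stood at neither end in the other lists. The part of the marker lists in the Esr1 and Srd5a1 differences was not tested. The markers called lower in PS females were Gja1, the main astrocyte connexin (-0.38, limma adjusted p = 0.0250), the myelin gene Opalin (-0.78, 0.0426), the transcription factors Pou3f1 of the hippocampus list (-1.31, 0.0393) and Tcf7l2 of the thalamus list (-1.39, 0.0481), and Lhx9 of the medial amygdala list (-0.56, 0.0456). In each of these lists 1 marker was called lower, of 8 to 13 tested, beside 5.53% of all genes. Itgam (0.37, limma adjusted p = 0.0264) and Cx3cr1 (0.30, 0.0423) were called higher, which is 2 of 10 microglia markers, beside 7.58% of all genes. Gja1 and Itgam were called in 16 of 16 fits with 1 library left out. The other 5 were called in 11 to 13 of 16, each being lost without PS females LM31 and LM32 and some of LM25, LM26, LM28 and LM29, each left out singly, and they were also lost without the filter (limma adjusted p between 0.0509 and 0.0608). Without LM25 and LM28 together Itgam alone of these 7 was called. With only the compared groups fitted Gja1 alone was called (limma adjusted p between 0.0511 and 0.0812 for the others). Cx3cr1 was also lost without TMM scaling (limma adjusted p = 0.0745) and Tcf7l2 with 0.1 CPM added (0.0516). Without the variance trend Lhx9, Cx3cr1 and Tcf7l2 were lost (limma adjusted p between 0.0527 and 0.0576).

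Among CTRL mice 0 of the 4 tested members were called by limma, and 0 had an unadjusted p under 0.05, beside 0.0702% of 14244 genes called. Esr1 differed by -0.07 between CTRL females and CTRL males (SE 0.22, 95% CI -0.54 to 0.41, limma adjusted p = 0.973), and Srd5a1 by -0.09 (SE 0.20, 95% CI -0.52 to 0.34, limma adjusted p = 0.960). Pgr (-0.04) and Gper1 (-0.08) had adjusted p-values of 0.960 and 0.934 in limma. A sex difference of the size seen for Esr1 among PS mice lay outside the CTRL interval.

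Esr1 and Srd5a1 ran in opposite directions over the libraries. Their log2 levels had a Pearson correlation of -0.87 over 16 libraries (Spearman -0.81), LM32 being highest in Esr1 and lowest in Srd5a1. Esr1 had a correlation of 0.26 with Pgr. Over 13300 genes with a mean of at least 1 CPM, the patterns most like that of Esr1 were Rasgrf2 (Pearson 0.974), Lcp2 (0.969) and Nol4 (0.963), and those most like Srd5a1 were Mpzl1 (0.961), Llgl1 (0.959) and Ick (0.949). For Pgr they were Zfp846 (0.922), Zfp644 (0.887) and Pfn4 (0.886), and for Gper1 Eif2b5 (0.876), Syt11 (0.875) and Smug1 (0.864). The 16 points share the group structure and the correction for unwanted variation, so these are descriptions of likeness in one table.

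Genes known to answer to estrogen or other sex hormones in the brain had mostly negative differences in PS against CTRL males. Of 24 listed, Pgr among them, 23 had a row and 14 were tested, 12 of the 14 differences in males were negative with a median of -0.58, and 2 were called lower and 0 higher, beside 2.56% of all genes called lower. Over all genes the median was 0.0073. Markers of the central amygdala (median -0.82) and of the medial amygdala (-0.55) lay in the same direction in these libraries, and their part was not tested. In females 0 of 14 were called by limma (0 at an unadjusted p under 0.05), with a median of 0.08. In CTRL females against CTRL males 13 of the 14 differences were negative, with a median of -0.33. There 0 were called by limma (2 at an unadjusted p under 0.05, beside 5.54% of all genes), so CTRL males lay mostly above CTRL females too. The 2 called in PS against CTRL males were Oxtr, the receptor for the social neuropeptide oxytocin, and Ecel1, a membrane peptidase of neurons.

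Oxtr (chromosome 6, chr6:112473683-112489943, minus strand) had 12.9, 23.4, 26.4 and 23.5 CPM in LM25 to LM28 of PS males, against 27.7, 45.5, 41.1 and 45.0 CPM in LM17 to LM20 of CTRL males. The male groups did not overlap, as for 6.62% of all genes in this direction. PS females had 34.4, 25.9, 33.1 and 34.0 CPM, against 22.3, 25.6, 29.7 and 19.3 CPM in CTRL females, where the order was the opposite and the ranges overlapped. The difference was -0.95 in males (SE 0.23, limma adjusted p = 0.0441) and 0.42 in females (SE 0.23, limma adjusted p = 0.463), and the contrast of the 2 effects was -1.37 (SE 0.32, limma adjusted p = 0.0446). This contrast was not called without CTRL male LM18 or LM20, CTRL female LM24, or PS female LM31 or LM32 (limma adjusted p between 0.0504 and 0.0624). Without CTRL male LM18, LM19 or LM20 or PS male LM25 the male difference was not called (limma adjusted p between 0.0697 and 0.0905), and without LM25 and LM28 together it was -0.71 (0.123). Without the filter on low values or the variance trend neither the male difference (0.0544 and 0.0568) nor the contrast (0.0540 and 0.0579) was called by limma.

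Ecel1 (chromosome 1, chr1:87147655-87156521, minus strand) had 0.246, 0.767, 0.950 and 0.386 CPM in LM25 to LM28 of PS males, against 1.15, 2.57, 2.69 and 3.20 CPM in LM17 to LM20 of CTRL males. The groups did not overlap, as for the same 6.62% of genes, and LM25 and LM28 were again the lowest. Its male difference was -1.44 (SE 0.28, limma adjusted p = 0.0322), the interval of its female difference of 0.08 ran from -0.53 to 0.69, and its male call was lost without the same 4 libraries as for Oxtr (limma adjusted p between 0.0570 and 0.0650). Without LM25 and LM28 together it was -1.08 (limma adjusted p = 0.120). Ecel1 also stands on the list of medial amygdala markers, where 8 of 12 were tested, 6 were negative in males with a median of -0.55, and 1 was called in each direction. The one called higher, Lhx9, a transcription factor of that list, averaged 41.7 ± 10.4 CPM in the PS males and 23.8 ± 3.95 CPM in the CTRL males (SD, n = 4 each, log2 difference 0.72, limma adjusted p = 0.0441), so the list did not move as one. It too was not called when any of those 4 libraries was left out (limma adjusted p between 0.0659 and 0.0765), nor without the filter (0.0539), the variance trend (0.0556) or LM25 and LM28 together (0.54, limma adjusted p = 0.137).

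Enzymes that make or break down sex steroids and neurosteroids were tested for 14 of 28 listed genes in males, Srd5a1 among them. Of these 14, 13 had positive differences with a median of 0.20, and 1 was called higher and 0 lower, beside 0.881% of all genes called higher. Markers of the hippocampus (median 0.77) and of oligodendrocytes (0.76) lay in the same direction in these libraries, and their part was not tested. In females 0 of 13 enzymes were called by limma (1 at an unadjusted p under 0.05), with a median of 0.02. The gene called in males was Cyp7b1, which hydroxylates oxysterols and the neurosteroids dehydroepiandrosterone and pregnenolone.

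Cyp7b1 had 30.5, 29.2, 28.3 and 33.1 CPM in LM25 to LM28 of PS males, against 22.9, 23.1, 21.2 and 20.8 CPM in LM17 to LM20 of CTRL males. These groups did not overlap, as for 17.3% of all genes in this direction. Its mean was 22.01 ± 1.98 CPM in PS females and 25.97 ± 0.875 CPM in CTRL females (SD, n = 4 each). Every PS female (20.1 to 24.4 CPM) lay below every CTRL female (24.8 to 26.8 CPM), as for 4.73% of all genes in this direction. Every CTRL female also lay above every CTRL male, as for 2.68% of genes. The difference was 0.39 in males (SE 0.069, limma adjusted p = 0.0248) and -0.22 in females (SE 0.069, limma adjusted p = 0.280), and the contrast of the 2 effects was 0.61 (SE 0.097, limma adjusted p = 0.0314). The male difference and this contrast were called in 16 of 16 fits with 1 library left out, and the contrast missed the threshold without the variance trend (limma adjusted p = 0.0510). Without LM25 and LM28 together the male difference was 0.31 (limma adjusted p = 0.0892). PS females had a lower level than PS males (-0.38, limma adjusted p = 0.0114), a difference called in 16 of 16 such fits and 9 of 9 other alternatives.

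**Figure D4:**
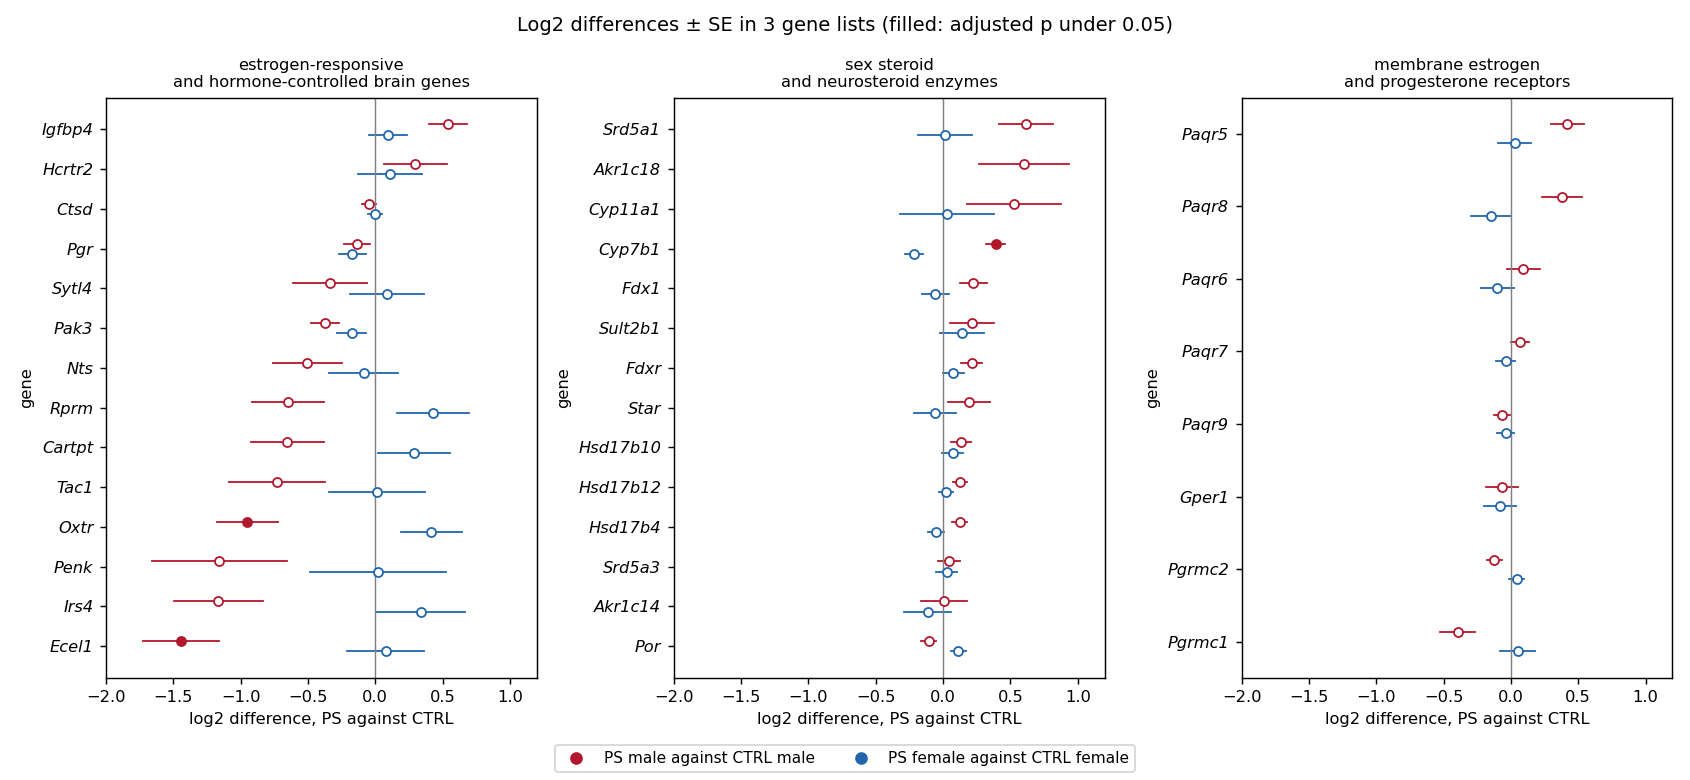
Log2 differences ± SE of PS against CTRL in males and in females for the tested genes of 3 lists, sorted by the male difference, with filled symbols at a limma adjusted p under 0.05. In males Oxtr (-0.95), Ecel1 (-1.44) and Cyp7b1 (0.39) are filled, and in females none is.

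Of 8 membrane receptors for estrogen and progesterone, Gper1 among them, 0 were called in males or females by limma (4 and 0 at an unadjusted p under 0.05). Over all genes 25.7% in males and 12.7% in females had an unadjusted p under 0.05. In PS females against PS males, where 5.53% of all genes were called lower, 1 of the 8 was called lower, Paqr8, a membrane progesterone receptor, with 112 ± 25.7 CPM in PS females and 166 ± 10.1 CPM in PS males (SD, n = 4 each, log2 difference -0.53, limma adjusted p = 0.0346). Of 21 coregulators and chaperones of steroid receptors, 20 were tested, 0 were called in males or females by limma (4 and 0 at an unadjusted p under 0.05), and 3 of the 20 were called higher in PS females than in PS males, beside 7.58% of all genes. These were the coactivator Pelp1 (0.26, limma adjusted p = 0.0138) and the co-chaperones Stip1 (0.20, 0.0300) and Stub1 (0.19, 0.0353).

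Of 14 genes of the gonadotropin and prolactin axis 7 were tested, and 0 were called in males or females by limma (2 and 1 at an unadjusted p under 0.05). Of the 7, 2 were called higher in PS females than in PS males, beside the same 7.58%, and these were the inhibin subunits Inha (0.32, limma adjusted p = 0.0364) and Inhbb (0.39, limma adjusted p = 0.0384). Without TMM scaling Stip1, Stub1, Inha and Inhbb were not called, with limma adjusted p-values between 0.0638 and 0.181. Inhbb was not called without the filter (0.0511), Stub1 without the variance trend (0.0506) or Inha with only the compared groups fitted (0.0641). Each of the 4, and Paqr8, was also lost without some of PS males LM25, LM27 and LM28 and PS females LM29, LM31 and LM32, each left out singly (limma adjusted p between 0.0501 and 0.0786), while Pelp1 was called in 16 of 16 such fits. Without PS male LM25 and LM28 together these 5 genes were not called either (limma adjusted p between 0.0643 and 0.204).

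**Figure D5:**
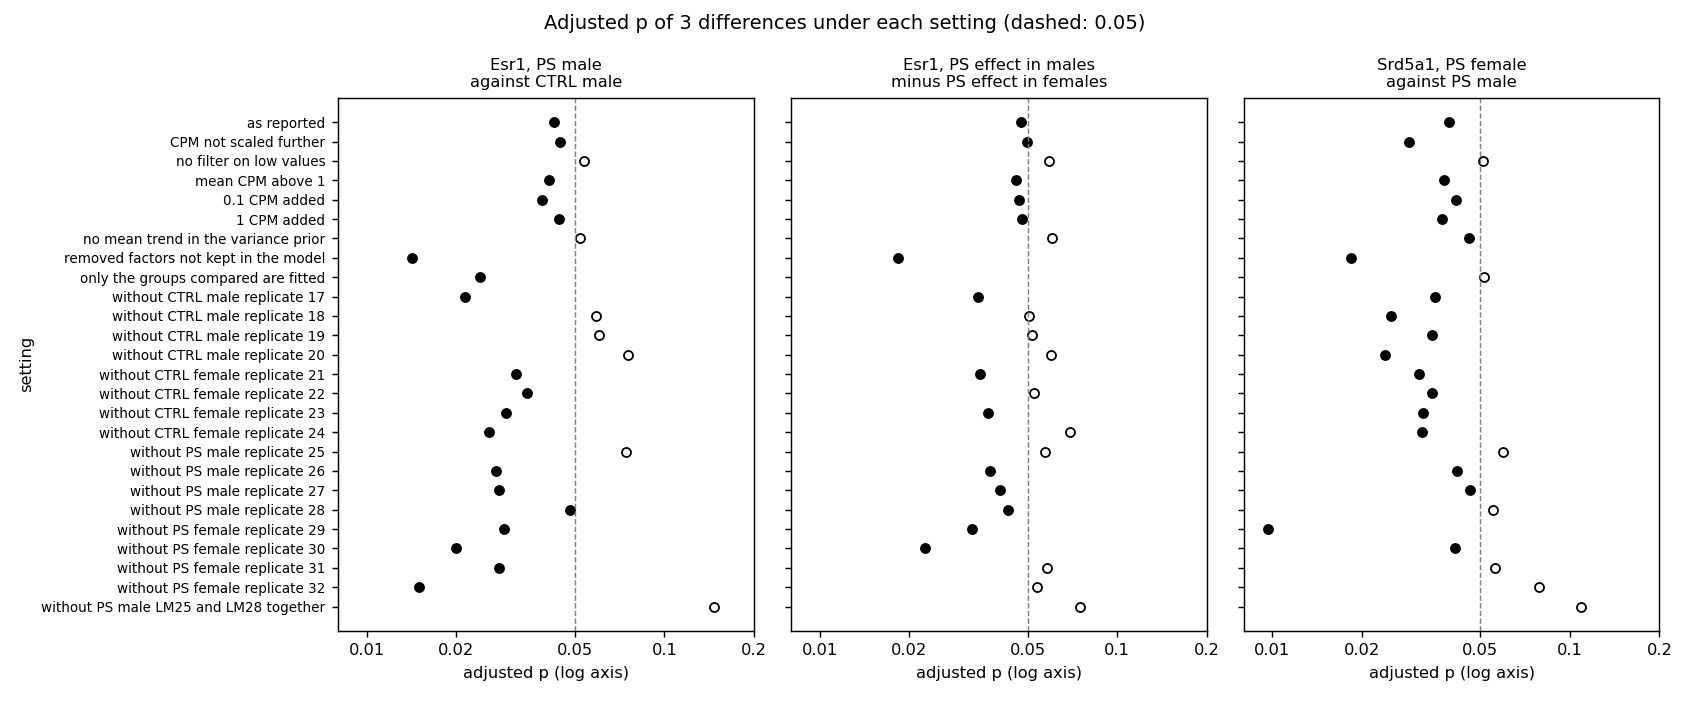
Adjusted p from limma for 3 differences under the reported setting and up to 25 alternatives, on a log axis with the threshold of 0.05 dashed, where replicate 17 stands for library LM17 and so on and filled symbols are below the threshold. Esr1 in PS against CTRL males lay between 0.0142 and 0.147, the contrast of its PS effects between 0.0183 and 0.0752, and Srd5a1 in PS females against PS males between 0.0097 and 0.109.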

How the data were processed

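Directional poly(A) RNA-seq libraries were made from 16 PN28 amygdala samples, 4 per group. The authors aligned uniquely mapped reads to mm10 with STAR, counted them per gene with featureCounts and used RUVs and edgeR (versions and strand setting are not given in the sources used here). The deposited columns named as raw hold whole-number values already corrected with RUVs, treated as a score, and the authors computed CPM from them. Another 12 columns hold the authors' own fold changes, p-values and FDR and were not used. Within groups the corrected values lacked 2 of 12 directions (singular values at most 0.191, against at least 6.08 for the others, over 11026 genes with a mean above 5 CPM). These 2 were kept in the model, leaving 10 residual degrees of freedom. No counting interval applies to corrected values.

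TMM factors (0.950 to 1.047) were computed from the corrected values, and log2(CPM + 0.5) was fitted in limma 3.58.1 (R 4.3.3) with 1 mean per group over all libraries, a mean trend in the variance prior and Benjamini-Hochberg adjustment. Genes under the filter were compared by exact permutation tests. The fit was tested on simulated data. The genes named are the members, called genes of the fixed lists (at most 4 per list and comparison) and the 3 genes most correlated with each member. 1 gene that the rule also covers, and the list that holds it, are not reported here. The members and the 16 lists were chosen with earlier results of these data known. Alternatives changed the scaling, filter, pseudocount, variance trend, removed factors, groups fitted and libraries. Positions are from GENCODE M21.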

Additional observations from a re-analysis of the deposited data

Results flagged for a closer look

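In 20 sets of 4 libraries (5 members, 4 groups each, with Cyp19a1 left out for its zeros), 3 had 1 library far from the other 3, and chance alone sets apart about 1 in 20 such sets. Pgr had 33.2 CPM in PS male LM28, against 43.8 CPM in the nearest PS male. Gper1 had 2.08 CPM in CTRL male LM17, against 2.19 CPM in the nearest CTRL male, which are close corrected values of 89 and 91. Esr2 had 0.116 CPM in CTRL female LM23, against 0.0733 CPM in the nearest CTRL female, which are corrected values of only 5 and 3. The PS effect on Esr1 differed between the sexes by -1.23 on the log2 scale (limma adjusted p = 0.0475), male minus female. For Esr1 itself no library stood apart by this measure.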

How the results depend on the processing

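With 4 libraries per group and corrected values, the number of members called depended on the setting. In PS against CTRL males it was 1 as reported, 0 without a filter on low values, without the variance trend or without PS male LM25 and LM28 together, and 2 (Esr1 and Srd5a1) with the removed factors not kept or only the compared groups fitted. It ran from 0 to 2 with 1 library left out. In PS females against PS males it was 2 as reported, 1 without a filter, with only the compared groups fitted or without LM25 and LM28, and 1 to 2 with 1 library left out. For the contrast of the PS effects it was 1 as reported, 0 without a filter, without the variance trend or without LM25 and LM28, and 0 to 1 with 1 library left out. Over all genes the calls in PS against CTRL males were 492 as reported, 152 without a filter, 108 without the variance trend, 1687 with the removed factors not kept and 1901 with only the compared groups fitted. For the contrast they were 591, 143, 10 and 1720 under the first 4 of these, and in CTRL females against CTRL males 10 as reported and 19 with the removed factors not kept. With 1 library left out they ran from 49 to 1429 in males and from 118 to 1488 for the contrast. The cause was not tested.

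Differences that changed sign lay near 0 and were not called in any setting. With 1 library left out, Srd5a1 ran from -0.16 to 0.21 in PS against CTRL females (and was -0.00077 without TMM scaling) and from -0.218 to 0.0373 in CTRL females against CTRL males, where Esr1 ran from -0.19 to 0.11. Gper1 ran from -0.166 to 0.0556 in PS against CTRL females, from -0.178 to 0.0432 in PS females against PS males and from -0.12 to 0.10 in the contrast of the PS effects, which was -0.0472 without LM25 and LM28. Pgr ran from -0.17 to 0.0053 in PS females against PS males and from -0.0497 to 0.125 in the contrast. With 1 library left out, 1 removed factor and not 2 could be recovered and kept. No paired analysis was made, because the replicate numbers are only library numbers and shared litters are not given in the sources used here.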
